A study of Mus musculus with 6 samples.

Results

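The genes described here encode the machinery that releases synaptic vesicles, measured as RNA in the injured spinal cord of mice with and without rotarod training. The 48 genes were chosen by symbol, for the known role of their proteins at the presynaptic terminal, and all 48 were found among the 54532 genes of the deposited count table. The trained group was C57BL/6J mice that had a spinal cord injury and were trained on the rotarod, a turning rod on which a mouse has to keep walking. The untrained group was C57BL/6J mice with the same kind of injury and no rotarod training. Each group had 3 libraries of total spinal cord RNA, and all were placed at day 28 after training by the labels. Every library thus came from injured cord, and no uninjured cord was part of the comparison. The labels do not give the injured segment, the method of injury, the age of the mice or whether a library came from 1 mouse, so p-values cover no more than the spread among these 6 libraries, part of which may be technical. The question put to the libraries was whether gene expression after injury changes with rotarod training.

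Neurons keep transmitter in small vesicles that dock at the active zone, a protein scaffold facing the synaptic cleft. Proteins of the vesicle and of the plasma membrane, the SNAREs, zip together and fuse the membranes when calcium enters, with synaptotagmins as the calcium sensors. After fusion the vesicle membrane is pinched off again by a clathrin and dynamin pathway and refilled. In the spinal cord these proteins serve motor neurons, local excitatory and inhibitory interneurons and the endings of fibres from the brain and from sensory ganglia. The cell bodies of such outside fibres lie elsewhere, so that most of the RNA of the cord comes from the cells within it. In whole cord, fewer neurons and less RNA in each neuron cannot be told apart.

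Total counts were 15814104 to 26092014 in the trained libraries and 15947347 to 18081949 in the untrained ones, and the 48 genes took 1.35% to 1.61% of the counts in trained and 1.48% to 1.56% in untrained cord. Levels are given in CPM, which is counts scaled for library size, in the order of replicates 1, 2 and 3. Markers of central nervous tissue, which brain shares with spinal cord, were present in every library: 12 general neuron genes summed to 8962, 8845 and 7312 CPM in the trained libraries and 8028, 9108 and 9383 CPM in untrained cord, and 8 oligodendrocyte genes to 43260.0, 38718 and 38478 CPM in the trained libraries and 34099.5, 37901 and 39384 CPM in untrained cord. Trained replicate 1 stood apart in the 8 Schwann cell markers, of which 7 were tested and which summed to 69.3, 975 and 548 CPM in the trained libraries and 809, 889 and 554 CPM in untrained cord. The part of that difference in the results below was not tested.

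In level per length of gene, which allows genes to be compared, the release genes spanned from 0.681 to 547 RPKM (CPM per kilobase of gene), leaving out Cplx3. Cplx1, a complexin that clamps and then promotes fusion at SNARE complexes, was the highest at 547 ± 42.4 RPKM (mean ± SD over the 6 libraries). Snap25, the plasma membrane SNARE of neurons, followed at 323 ± 24.8 RPKM, and Rab3a, the main small GTPase of the synaptic vesicle, at 246 ± 24.4 RPKM. The synaptotagmin gene Syt11 was at 197 ± 17.9 RPKM, the dynamin gene Dnm1 at 165 ± 13.1 RPKM and Bin1, an amphiphysin also made by oligodendrocytes, at 144 ± 6.41 RPKM. From Cplx1 down to Bin1 no neighbours in this order overlapped in mean ± SD, whereas Bin1 and the next gene, Vamp1 (133 ± 13.3 RPKM), did, and so did Syp (112 ± 9.98 RPKM) and Syn1 (106 ± 8.84 RPKM). Syp and Syn1 encode synaptophysin and synapsin I, the standard protein markers of vesicles. At the low end lay Syn3 (0.869 ± 0.180 RPKM) and Unc13b (0.681 ± 0.127 RPKM). Cplx3, a complexin known from ribbon synapses of the retina, had 1, 1 and 1 counts in trained and 0, 3 and 0 counts in untrained cord, at or under the limit of 3 counts used for detection, and it did not enter the test.

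Where a family has several members, the cord had a clear order of paralogues. Vamp1 was above Vamp2, both encoding synaptobrevins of the vesicle membrane, with per-length ratios of 1.68, 1.56 and 1.37 in trained and 1.60, 1.61 and 1.75 in untrained cord. Complexin gene Cplx1 lay above Cplx2 with ratios of 10.7, 10.9 and 10.1 in trained and 11.6, 10.7 and 11.9 in untrained cord. Rab3a exceeded Rab3c by 10.8 to 14.8 times and Syn1 exceeded Syn2 by 2.52 to 2.94 times over the 6 libraries. Of the SV2 vesicle glycoproteins, Sv2a (98.2 ± 6.04 RPKM) lay above Sv2c (43.3 ± 4.48 RPKM) and Sv2b (14.4 ± 2.05 RPKM). The lengths are those of the deposited table, and a gene with long exons of little use would come out too low.

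**Figure D1:**
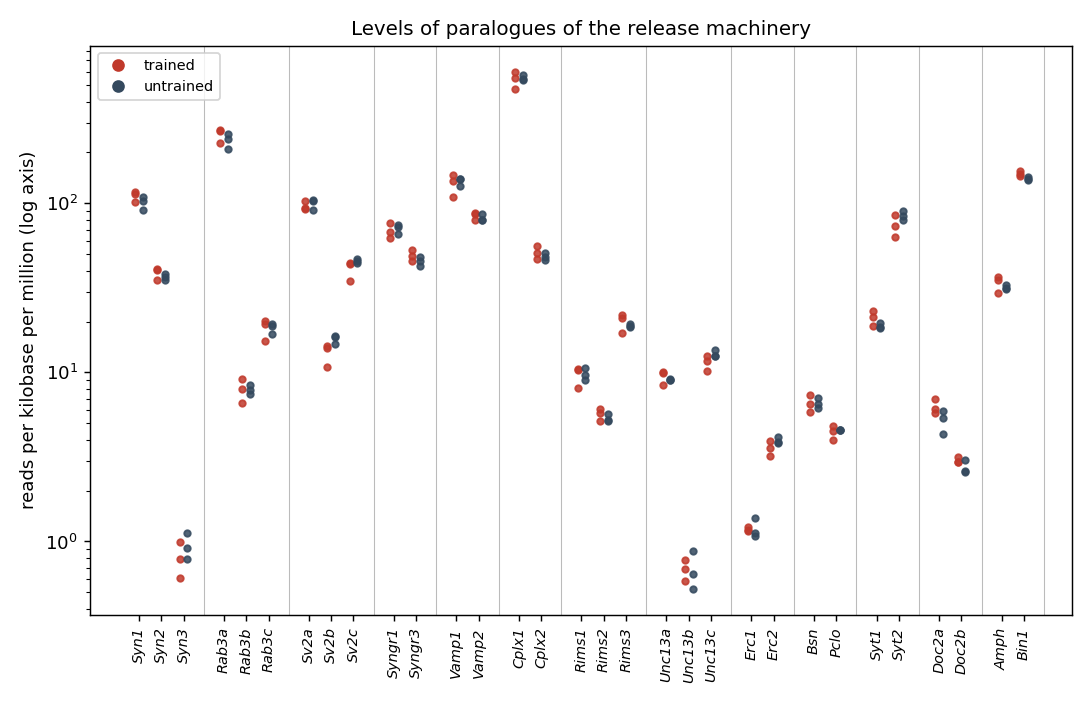
Levels of the members of 13 families in each library, in RPKM on a log axis, with trained libraries to the left of untrained ones for each gene and grey lines between families. In both groups Vamp1 lies above Vamp2, Cplx1 above Cplx2 and Syt2 above Syt1 in every library.

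Between trained and untrained cord, none of the 47 release genes tested passed an adjusted p of 0.05 in the quasi-likelihood test of edgeR, with p-values adjusted by Benjamini-Hochberg over the 16909 genes tested. Of all genes, 0.0591% passed, 0.00591% being higher and 0.0532% lower in trained cord. The lowest adjusted p among the release genes in edgeR was 0.144, for Syt5. At an unadjusted p under 0.05, 3 of the 47 were found (Syt5, Stx1a and Sv2b), against 10.0% of all genes. Syt5 alone had an unadjusted p under 0.01, as did 2.84% of all genes. DESeq2 called Syt5 (adjusted p = 0.0438) and no other release gene, limma-voom called 0, while they called 90 and 9 of all genes. Both found 3 release genes at an unadjusted p under 0.05, beside 7.39% of all genes in DESeq2 and 10.4% in limma-voom. The median log2 fold change of the 47 was 0.0057, beside -0.0080 for all genes tested, with 25 above 0 and 22 below (30 above 0 with upper-quartile scaling). In 42 of them the log2 fold change was smaller than 0.2 in size. For 45 of the 47 the 95% interval of the difference lay within 1.5-fold in either direction, and for 39 within 1.3-fold. Syn3 (-0.65 to 0.17 as log2) and Stx1a (0.051 to 0.59 as log2) had intervals reaching beyond 1.5-fold.

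**Figure D2:**
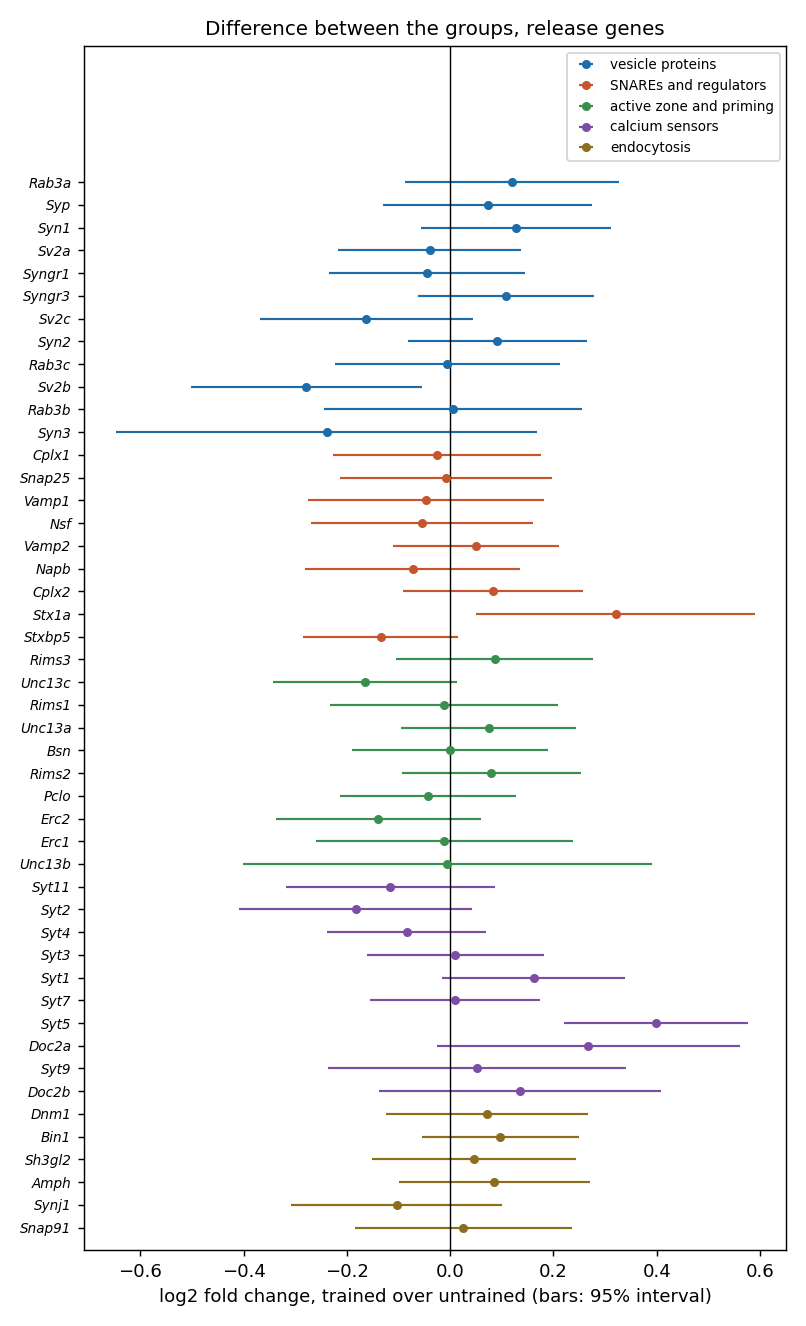
Log2 fold change (trained over untrained) of the 47 release genes tested, grouped by role and ordered by level per length within a role, with 95% intervals not corrected for the number of genes. Intervals of 44 genes cross 0, and those of Syt5, Stx1a and Sv2b do not.

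The groups did not overlap in 5 of the 47 genes (Syt5, Stx1a, Bin1, Sv2b and Stxbp5), while among all genes tested this held for 16.8%. Syt5, Stx1a and Bin1 were the higher ones in trained cord (8.13% of all genes), and Sv2b and Stxbp5 the lower ones (8.69%). Leaving out 1 library at a time, the count of such genes ran from 5 to 23, the highest being without trained replicate 3, while 24.9% to 32.4% of all genes were apart in those fits. Coordinates below are in GRCm38.

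Among the 12 genes of vesicle proteins, 6 had a log2 fold change above 0 and 6 below. Sv2b, a transporter-like glycoprotein found on vesicles of a subset of synapses (ENSMUSG00000053025, chromosome 7, bases 75114894 to 75309262, minus strand), had 121, 117 and 90.5 CPM in the trained libraries and 124, 136 and 138 CPM in the untrained ones. All 3 trained libraries lay below all 3 untrained ones, and trained replicate 3 was far below the rest. Its log2 fold change was -0.28 ± 0.10 (SE; adjusted p = 0.398 in edgeR), and without trained replicate 3 it was -0.14 (adjusted p = 0.386 in edgeR). The paralogue Sv2c, at 432, 423 and 335 CPM in the trained libraries and 444, 431 and 457 CPM in the untrained ones, had trained replicate 3 below all others and the remaining libraries intermixed. Sv2a, at 479, 436 and 431 CPM in the trained libraries and 422, 484 and 478 CPM in the untrained ones, showed overlapping groups. Rab3a had 606, 596 and 505 CPM in the trained libraries and 536, 467 and 569 CPM in the untrained ones, with untrained replicate 2 the lowest and the groups overlapping (log2 fold change 0.12 ± 0.096). That value ran from 0.043 without untrained replicate 2 to 0.22 without trained replicate 3. For Syp the values were 667, 593 and 533 CPM in the trained libraries and 523, 600.2 and 582 CPM in the untrained ones. For Syn1 they were 375, 383 and 337 CPM in the trained libraries and 339.9, 303 and 359 CPM in the untrained ones. In both genes the groups overlapped, at log2 fold changes of 0.072 and 0.13. Syn2, Rab3b, Rab3c, Syngr1 and Syngr3 lay between -0.045 and 0.11 in log2 fold change. Syn3, a synapsin of low level in the adult, had 12.1, 9.63 and 7.51 CPM in the trained libraries and 11.2, 9.73 and 13.9 CPM in the untrained ones, with trained replicate 3 the lowest and untrained replicate 3 the highest.

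Of the 9 SNARE genes and regulators tested, 3 had a positive and 6 a negative log2 fold change. Stx1a, a syntaxin of the presynaptic plasma membrane (ENSMUSG00000007207, chromosome 5, bases 135023482 to 135051100, plus strand), had 22.8, 19.9 and 20.9 CPM in the trained libraries and 18.0, 18.9 and 14.1 CPM in the untrained ones. Each trained library was above each untrained one, with untrained replicate 3 the lowest. Its log2 fold change was 0.32 ± 0.12 (adjusted p = 0.426 in edgeR), and without untrained replicate 3 it was 0.20. Stxbp5 encodes tomosyn, an inhibitor that occupies the syntaxin and SNAP25 partners of synaptobrevin (ENSMUSG00000019790, chromosome 10, bases 9755547 to 9901079, minus strand). It had 77.4, 74.2 and 70.1 CPM in the trained libraries and 80.6, 83.9 and 79.0 CPM in the untrained ones, so that the groups were apart by a small margin, at -0.13 ± 0.070 (adjusted p = 0.537 in edgeR) and at -0.079 without trained replicate 3. Snap25 had 2316, 2332 and 1909 CPM in the trained libraries and 2094, 2179 and 2322 CPM in the untrained ones, a log2 fold change of -0.0083 with a 95% interval of -0.21 to 0.20, and of 0.10 without trained replicate 3. Trained replicate 3 was the lowest library and the others were intermixed. Vamp1 had 1503, 1377 and 1115 CPM in the trained libraries and 1291, 1415 and 1421 CPM in the untrained ones (log2 fold change -0.047, or 0.086 without trained replicate 3). Cplx1 had 1313, 1212 and 1037 CPM in the trained libraries and 1173, 1198 and 1255 CPM in the untrained ones (log2 fold change -0.026 ± 0.093, or 0.083 without trained replicate 3 and 0.0020 without untrained replicate 3). In both genes trained replicate 1 was the highest library and trained replicate 3 the lowest. Nsf, the ATPase that takes spent SNARE complexes apart, and Napb, its adaptor, had log2 fold changes of -0.055 and -0.073. Those of Vamp2 and Cplx2 were 0.050 and 0.083.

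The promoters of Stx1a, Sv2b and Stxbp5, genes with groups apart that were matched in the RefSeq promoter table used, are shown for orientation, 250 bases before to 50 after the start, in GRCm38.p6 and 5′ to 3′. Capitals mark 4 short motifs, searched on both strands. The first was GGGCGG, the binding motif of Sp1. The second was TGACG, from the response element of CREB, and the third TATAAA, the TATA box. The fourth was CAGCACC, from the RE1 element of the neuronal repressor REST. No match overlapped one of another motif in the windows shown.
Stx1a, chr5:135023232-135023531, plus strand: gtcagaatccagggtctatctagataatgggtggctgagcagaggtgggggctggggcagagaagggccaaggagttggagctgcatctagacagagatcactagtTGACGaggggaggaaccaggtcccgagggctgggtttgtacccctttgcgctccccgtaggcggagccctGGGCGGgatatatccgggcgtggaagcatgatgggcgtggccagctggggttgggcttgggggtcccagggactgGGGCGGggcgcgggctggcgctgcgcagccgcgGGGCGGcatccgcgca
Sv2b, chr7:75309213-75309512, minus strand: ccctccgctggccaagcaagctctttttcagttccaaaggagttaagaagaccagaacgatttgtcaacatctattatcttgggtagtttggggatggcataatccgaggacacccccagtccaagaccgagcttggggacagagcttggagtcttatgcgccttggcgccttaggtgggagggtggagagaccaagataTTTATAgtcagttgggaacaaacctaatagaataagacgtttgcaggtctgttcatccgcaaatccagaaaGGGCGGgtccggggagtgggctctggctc
Stxbp5, chr10:9900991-9901290, minus strand: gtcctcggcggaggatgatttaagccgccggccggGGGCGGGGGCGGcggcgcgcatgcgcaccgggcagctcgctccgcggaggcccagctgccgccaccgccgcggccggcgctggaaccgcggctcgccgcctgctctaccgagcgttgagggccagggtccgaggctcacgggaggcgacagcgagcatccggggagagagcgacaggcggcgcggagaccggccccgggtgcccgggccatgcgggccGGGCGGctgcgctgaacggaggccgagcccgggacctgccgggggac
Stx1a carries the Sp1 motif and the CREB motif, and Stxbp5 the Sp1 motif. Sv2b holds the Sp1 motif and, on the opposite strand, the TATA box. The Sv2b window is the farthest upstream of 4 listed for that gene. Over the 45 windows of the 37 release genes matched in the RefSeq table, the Sp1 motif was present in 66.7%, against 35.7% of all 32851 windows. For the CREB motif the shares were 22.2% and 20.8%, for the TATA box 6.67% and 13.6%, and for the REST motif 6.67% and 7.14%. Syn1, Sv2c and Unc13a held the last of these. The median G and C content was 62.7% in the release gene windows and 52.7% in all windows. Motif matches describe the sequence and do not show binding. Not matched in the table were Bin1, Doc2a, Doc2b, Rims2, Snap25, Syn3, Syngr3, Syt4, Syt5, Syt7 and Vamp2.

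All 10 active zone and priming genes had log2 fold changes of less than 0.2 in size, 4 positive and 6 negative, and 8 of the 10 had their lowest value in trained replicate 3. Bsn and Pclo encode the giant scaffold proteins Bassoon and Piccolo. Bsn had 117, 103 and 93.0 CPM in the trained libraries and 103, 98.7 and 112 CPM in the untrained ones, and its log2 fold change had a 95% interval of -0.19 to 0.19. Pclo had 109, 102 and 88.9 CPM in the trained libraries and 103, 103 and 103 CPM in the untrained ones, with the 3 untrained libraries almost equal. Rims3, the highest of this role per length and a short relative of the RIM proteins that tether vesicles to calcium channels, had 168, 174 and 136 CPM in the trained libraries and 147, 150.3 and 153 CPM in the untrained ones. Trained replicates 1 and 2 were above every untrained library and trained replicate 3 below them, and its log2 fold change of 0.086 ran from 0.021 without trained replicate 2 to 0.21 without trained replicate 3. The long forms Rims1 and Rims2 had log2 fold changes of -0.011 and 0.080. Unc13a, a Munc13 protein that primes vesicles for fusion, had 128, 126 and 107 CPM in the trained libraries and 116, 113 and 113 CPM in the untrained ones (log2 fold change 0.074 ± 0.078). Unc13c had a log2 fold change of -0.16 ± 0.082 (adjusted p = 0.523 in edgeR). Unc13b and Erc1, which many other tissues use too, had log2 fold changes of -0.0057 and -0.011, and Erc2 of -0.14.

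Among the 10 synaptotagmin and Doc2 genes, grouped here as calcium sensors though not all bind calcium, Syt5 stood out. It encodes a synaptotagmin of the calcium-binding kind (ENSMUSG00000004961, chromosome 7, bases 4539765 to 4547541, minus strand). It had 41.9, 41.2 and 39.0 CPM in the trained libraries and 28.8, 32.3 and 31.7 CPM in the untrained ones, all trained libraries above all untrained ones with little spread within either group. The means were 40.7 ± 1.51 CPM in trained and 30.9 ± 1.83 CPM in untrained libraries (SD, n = 3 each), a 1.32-fold difference, at a log2 fold change of 0.40 ± 0.082 with a 95% interval of 0.22 to 0.58. Its unadjusted p was 0.000333 and its adjusted p over all genes 0.144 in edgeR, short of the threshold. Without trained replicate 3 Syt5 was among the 221 genes called (log2 fold change 0.45, adjusted p = 0.0237 in edgeR), and with no filter on low counts among the 276 called (adjusted p = 0.00572 in edgeR). No other gene of the annotation overlaps its span. Doc2a, a cytosolic calcium sensor of high affinity, had 17.1, 19.6 and 16.1 CPM in the trained libraries and 12.2, 16.6 and 15.1 CPM in the untrained ones, with untrained replicate 1 the lowest (log2 fold change 0.27 ± 0.14, adjusted p = 0.530 in edgeR). Its exons share 1103 bases with Ino80e on the other strand, and reads of the pair cannot be told apart if strand was not used. Syt11, a synaptotagmin that binds no calcium, had 1075, 995 and 886 CPM in the trained libraries and 966, 1111 and 1125 CPM in the untrained ones, with trained replicate 3 the lowest (log2 fold change -0.12, or -0.025 without that library). Syt3, Syt4, Syt7, Syt9 and Doc2b had log2 fold changes of -0.084 to 0.14.

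**Figure D3:**
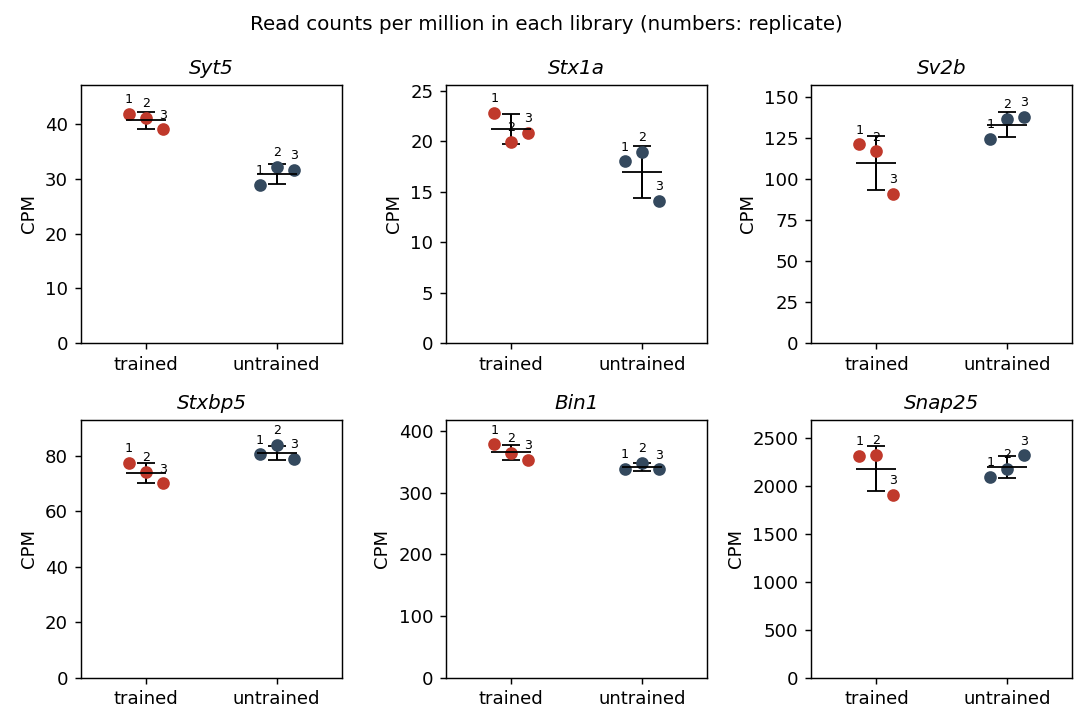
CPM in each library for the 5 release genes whose groups did not overlap and for Snap25, with points numbered by replicate, the group mean as a bar and the SD as whiskers. In Syt5 the trained libraries lie between 39.0 and 41.9 CPM and the untrained ones between 28.8 and 32.3 CPM, whereas in Snap25 trained replicate 3 lies below every other library.

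Syt1 and Syt2 are the fast calcium sensors of synchronous release, with Syt2 prominent at fast synapses of the hindbrain and cord. Syt1 had 177, 193 and 157 CPM in the trained libraries and 154, 163 and 154 CPM in the untrained ones. Syt2 had 655, 562 and 484 CPM in the trained libraries and 605, 643 and 684 CPM in the untrained ones. The groups overlapped in each gene. The log2 fold change was 0.16 ± 0.082 for Syt1 (adjusted p = 0.527 in edgeR) and -0.18 ± 0.10 for Syt2 (adjusted p = 0.574 in edgeR). Without trained replicate 3 they were 0.25 for Syt1 and -0.061 for Syt2. The ratio of Syt2 to Syt1 per length was 4.05, 3.17 and 3.36 in trained and 4.30, 4.29 and 4.84 in untrained cord. Every trained library had a lower ratio than every untrained one, a difference of -0.35 in mean log2 ratio. In an exact two-sided permutation test its p was 0.1, the smallest that 3 against 3 allows, and 0.433 after Benjamini-Hochberg adjustment over the 13 families. Any ratio with groups apart gets this unadjusted p, so it adds nothing to the separation itself. The ratios were also chosen after their values were seen, so these p-values are descriptive only. Ratios of the top 2 paralogues were also apart for Munc13 (Unc13c over Unc13a, 1.15, 1.26 and 1.21 in trained and 1.36, 1.52 and 1.39 in untrained cord for replicates 1, 2 and 3) and for synaptogyrin (Syngr1 over Syngr3, 1.40 ± 0.0341 in trained and 1.56 ± 0.0626 in untrained cord, mean ± SD, n = 3 each), with the same exact permutation p of 0.1 and 0.433 adjusted. In the other 10 families the ratios of the groups overlapped. How often ratios of other gene pairs lie apart in these libraries was not computed. The promoters of Syt1 and Syt2 are given for orientation, in the same build and with the same capitals.
Syt1, chr10:109010926-109011225, minus strand: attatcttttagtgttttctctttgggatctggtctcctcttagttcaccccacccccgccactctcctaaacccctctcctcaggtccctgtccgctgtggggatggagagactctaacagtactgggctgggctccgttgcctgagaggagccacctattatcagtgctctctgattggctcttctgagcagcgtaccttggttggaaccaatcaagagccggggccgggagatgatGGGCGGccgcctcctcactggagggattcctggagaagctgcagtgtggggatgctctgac
Syt2, chr1:134646362-134646661, plus strand: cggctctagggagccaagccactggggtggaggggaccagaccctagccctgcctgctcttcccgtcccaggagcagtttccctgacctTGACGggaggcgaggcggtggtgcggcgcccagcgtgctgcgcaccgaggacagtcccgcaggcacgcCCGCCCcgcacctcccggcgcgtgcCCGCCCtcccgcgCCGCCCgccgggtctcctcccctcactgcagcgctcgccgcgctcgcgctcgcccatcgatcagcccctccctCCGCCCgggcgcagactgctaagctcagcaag
The Syt2 window holds the Sp1 motif, on the opposite strand, and the CREB motif, and the Syt1 window the Sp1 motif. RefSeq lists a further start for each gene, not shown.

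Of the 6 endocytosis genes, 5 had a positive log2 fold change and Synj1, a lipid phosphatase needed to shed the clathrin coat, a negative one (-0.10). Bin1, a membrane-bending amphiphysin (ENSMUSG00000024381, chromosome 18, bases 32377217 to 32435736, plus strand), had 379, 365 and 353 CPM in the trained libraries and 339, 349 and 338 CPM in the untrained ones, with the groups apart and a log2 fold change of 0.097 ± 0.070 (adjusted p = 0.678 in edgeR). Its range over the 6 libraries was narrow, with a coefficient of variation of 4.44%, the smallest of the release genes. Dnm1, the neuronal dynamin that cuts vesicles from the membrane, had 955, 914 and 788 CPM in the trained libraries and 832, 796 and 902 CPM in the untrained ones (log2 fold change 0.071 ± 0.090), with the groups overlapping. That value ran from 0.013 without trained replicate 1 to 0.17 without trained replicate 3. Amph, the neuronal partner of Bin1, Sh3gl2, which encodes endophilin A1, and Snap91, the clathrin adaptor AP180, had log2 fold changes of 0.086, 0.046 and 0.026. Over all 47 genes the median coefficient of variation across the 6 libraries was 8.86%, beside 10.95% for all genes, with Syn3 the most variable at 20.8%.

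Within the trained group, 1 library stood below the others across the release machinery. Trained replicate 3 was lowest of the 6 in 32 of the 47 release genes (68.1%), and in 21.1% of all genes tested. It had the highest value in 0 of the 47, compared with 21.2% of all genes. Trained replicates 1 and 2 were the lowest library in 0 of the 47, and they were the highest in 18 and 12. In mean log2 CPM, centred on all libraries, the 47 genes stood at 0.096, 0.066 and -0.15 in trained and -0.038, -0.0049 and 0.030 in untrained cord. Trained replicate 3 was the lowest library in each of the 5 roles by this measure. The general neuron markers, none of which is among the 48, stood at 0.085, 0.038 and -0.17 in trained and -0.10, 0.063 and 0.086 in untrained cord. Trained replicate 3 was the lowest library in 7 of these 12, in 5 of 7 inhibitory neuron genes, in 4 of 7 motor neuron genes and in 2 of 8 excitatory neuron genes. Astrocyte, oligodendrocyte and microglial markers had it as their lowest in 0 of 8 each. Microglial markers summed to 745, 794 and 1097 CPM in the trained libraries and 1089.7, 963 and 999 CPM in untrained cord, with trained replicate 3 the highest library. In the 9 of 10 sensory ganglion genes tested, a sign of dorsal root tissue, mean log2 CPM, centred in the same way, stood at -1.24, -1.25 and 0.80 in trained and -1.09, 1.82 and 0.97 in untrained cord. Some were near the detection limit, such as Scn10a at 0, 0.12 and 3.48 CPM in trained and 0, 9.19 and 3.32 CPM in untrained cord. All 10 summed to 148, 144 and 183 CPM in the trained libraries and 147, 235 and 165 CPM in untrained cord. Prph was also on the motor neuron list. The part of these cell type differences in the release gene values was not tested.

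**Figure D4:**
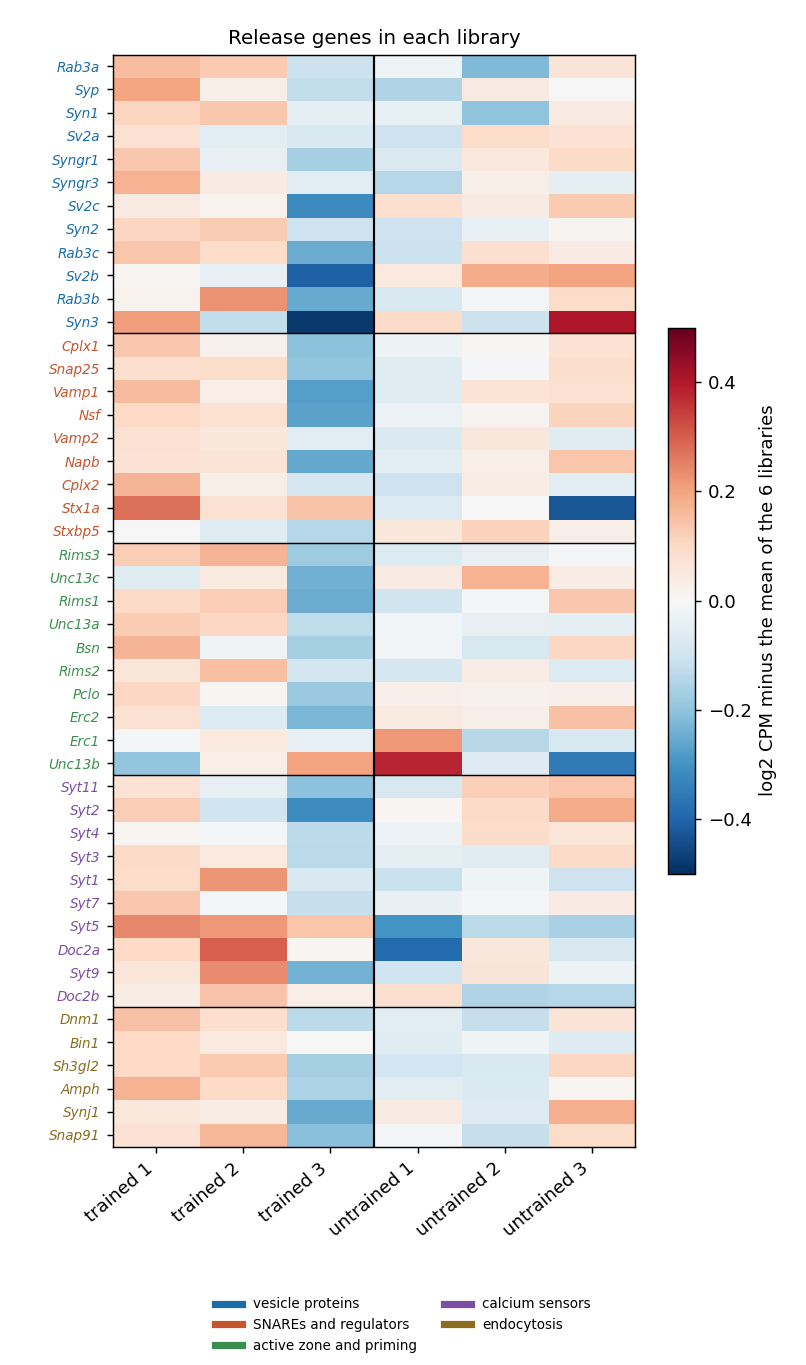
Log2 CPM of the 47 release genes in each library, as the difference from the mean of the 6 libraries (red higher, blue lower), ordered by role and level. The column of trained replicate 3 is blue for most genes, and Syt5 and Stx1a are red in all 3 trained columns.

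**Figure D5:**
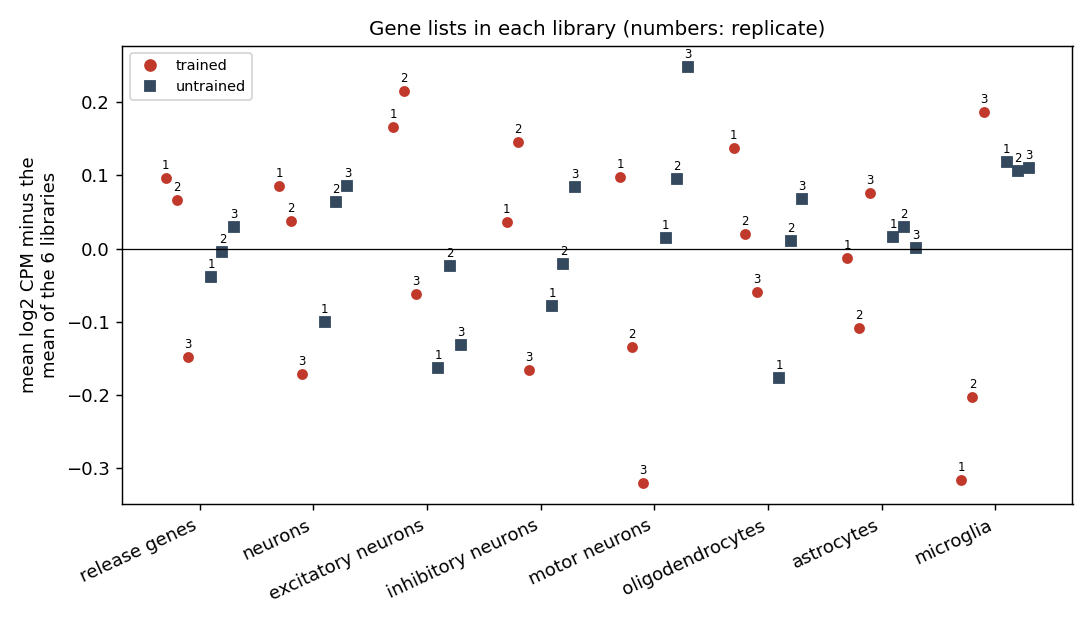
Mean log2 CPM of each gene list in each library, centred on the 6 libraries, with trained libraries as circles and untrained ones as squares, numbered by replicate. Trained replicate 3 is the lowest point for the release genes and for general, inhibitory and motor neuron markers, and the highest for astrocyte and microglial markers.

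Without trained replicate 3, 37 of the 47 release genes had a positive log2 fold change, their median was 0.109 beside 0.0084 for all genes, and 13 had an unadjusted edgeR p under 0.05, all higher in trained cord (27.7%, against 14.6% of all genes). In that fit the groups were apart in 23 genes, 21 of them higher in trained cord, or 48.9% against 32.4% of all genes. Each role contributed to the 13: 4 vesicle genes (Syn1, Syn2, Rab3a and Syngr3), 2 SNARE genes (Stx1a and Cplx2), 2 active zone genes (Rims3 and Unc13a), 3 sensors (Syt1, Syt5 and Doc2a) and 2 endocytosis genes (Dnm1 and Amph). Syt1 had a log2 fold change of 0.25 there (adjusted p = 0.0842 in edgeR) and Amph 0.20 (adjusted p = 0.163 in edgeR), and Syt5 was the 1 release gene past the adjusted threshold, among 221 of all genes. With other libraries left out, 20 to 29 of the 47 were positive and 1 to 6 had an unadjusted edgeR p under 0.05, in fits where 7.24% to 8.36% of all genes did. Without trained replicate 1 these were 1 higher and 5 lower in trained cord, beside 8.22% of all genes in either direction. The remaining fits of this kind had 1 to 3 higher and 0 to 2 lower. The count of positive genes thus depended on trained replicate 3. That library was singled out for its low values in these same genes, so a rise on leaving it out follows from the choice. The counts and p-values of that fit are therefore descriptive and no test of a difference between the groups.

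A further 61 genes of vesicle, SNARE, active zone, sensor and endocytic proteins outside the 48 were read from the same fit, of which 60 were tested. Their lowest adjusted p was 0.334 in edgeR, and 0 were called by edgeR, DESeq2 or limma-voom. At an unadjusted p under 0.05 edgeR found 3 higher and 2 lower in trained cord (4.47% and 5.55% of all genes), DESeq2 found 2 in all (7.39% of all genes) and limma-voom 5 (10.4%). Their median log2 fold change was 0.0033, with 31 positive and 29 negative. The 2 of smallest p were Snap23, the SNAP25 relative of non-neuronal cells, with 14.7, 16.6 and 19.1 CPM in the trained libraries and 23.9, 21.6 and 19.8 CPM in the untrained ones (adjusted p = 0.334 in edgeR), and Syt16, a synaptotagmin relative, with 20.6, 23.7 and 17.7 CPM in the trained libraries and 16.9, 15.5 and 16.2 CPM in the untrained ones (adjusted p = 0.372 in edgeR). Of the genes that load vesicles with transmitter, Slc17a6 (glutamate) had a log2 fold change of -0.059 ± 0.089 and Slc32a1 (GABA and glycine) of 0.14 ± 0.083. Among the lower ones of this kind, Slc17a7, Slc17a8 and Slc18a3 had -0.074 ± 0.22, -0.42 ± 0.29 and -0.17 ± 0.14, and Slc18a2 had 0.054 ± 0.18. Trained replicate 3 was the lowest library in 29 of the 60.

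Exons of 18 of the 48 genes overlap those of another gene in the GENCODE M21 annotation. Of the genes with groups apart, Bin1 shares 256 bases with A830052D11Rik and Sv2b 47 bases with 1500012K07Rik, whereas Stx1a, Stxbp5 and Syt5 share none. Syn3 shares 1733 bases with Timp3 on the other strand, whose reads could enter its count.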

How the data were processed

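RNA of 6 spinal cord libraries, 3 trained and 3 untrained, was read as 150 bp pairs, per the labels' protocols. The authors deposited raw read counts per gene, with no normalization, and gene lengths (bases, another deposited column used only to compute RPKM). Per the submitters' processing notes, Bowtie 0.12.2 was among the tools, and mm8 and mm9 are listed as builds with no role stated. Which program made the counts, and whether it used strand, is not given in the sources used here. Gene ends in the table equal those of GENCODE M21 (GRCm38) for 98.3% of matched genes, and for 45 of the 48, so coordinates are given as GRCm38 and 1-based.

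The deposited counts entered a robust quasi-likelihood fit over all genes with group as the only term (edgeR 4.0.16, R 4.3.3), after filterByExpr and TMM scaling. The test was also run on counts simulated independently for each gene, with planted changes larger than any seen in the release genes. That run cannot speak to smaller changes or to shifts shared by many genes of a library. CPM and RPKM were computed from the counts with TMM factors. At least 3 counts, 0.116 to 0.192 CPM, were taken as detection, and depth limits the rarest genes only. Other settings tried were 2 scalings (RLE, upper-quartile), 2 tools (DESeq2 1.42.0 and limma-voom, limma 3.58.1), other filters, a replicate block and leaving out each library. Members, lists and named genes were chosen with earlier results of these data known, and paralogue ratios after their values were seen. Values in every library were given for genes with an unadjusted p under 0.05 or groups apart, the highest of each role per length, and others named for their role. RefSeq promoters matched 37 of the 48 genes. Some related genes are not reported here by name.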

Additional observations from a re-analysis of the deposited data

How the results depend on the processing

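The count of release genes called was 0 in the edgeR fit as reported and also with RLE or upper-quartile scaling, limma-voom, a minimum of 1 CPM in any 3 libraries and the replicate block. It was 1 with DESeq2 and 1 with no filter, Syt5 each time (adjusted p = 0.0438 and 0.00572), and 0 to 1 with a library left out. At an unadjusted p under 0.05 it was 3, and under 0.01 it was 1. Of all genes, 90 passed in DESeq2, 276 with no filter, 5 with the replicate block and 4 to 221 with a library left out, beside 10 as reported. Same-numbered libraries correlated at -0.18, -0.091 and -0.13 in their deviations from the group means. With 3 libraries per group this cannot decide whether the replicate numbers pair the samples, and the labels do not say. The median log2 fold change of the release genes ran from -0.019 to 0.109 with a library left out, the highest without trained replicate 3. Genes with groups apart numbered 5 to 23 in these fits, a comparison added after seeing the data, and 5 with either other scaling. Of 70 values of the 10 genes followed across the other settings, 68 kept their direction and side of the threshold, the exceptions being the Syt5 calls. With a library left out, Cplx1 ran from -0.10 to 0.083 and changed sign, and Syt5 ran from 0.36 to 0.45. The log2 difference of the Syt2 to Syt1 ratio ran from -0.45 to -0.28, also added after seeing the data. Of the top 10 genes by RPKM, 8 were also among the top 10 by CPM.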
